A study of Mus musculus with 41 samples.

Results

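Claudin-low tumors are a class of mammary cancers with little of the epithelial adhesion machinery. Among 28 mouse mammary tumors that lacked Plk2 and p53 (Plk2-/-; p53-/-), 3 were placed in this class by the study, PLK2null_732, PLK2null_733 and PLK2null_743, and they were compared with the other 25 tumors of the same genotype. The series held 41 tumors, each with 1 RNA-seq library. The remaining 13 were p53-/- tumors with Plk2 intact, of which T11 is a claudin-low line and served here as a check. All tumors were Balb/c and received no treatment. Plk2-/-; p53-/- mammary epithelial cells had been placed in wild-type Balb/c hosts, in fat pads cleared of their own epithelium, where tumors arose after a long latency, and tumors were then carried on by serial transplantation. The host keeps its own stroma, vessels and immune cells, so a bulk library holds RNA of both tumor and host. Of the 25 other tumors, 7 were primary tumors in the study's latency data, and the labels do not say which of the rest share a primary tumor. Nor do the labels say whether PLK2null_732, PLK2null_733 and PLK2null_743 arose separately. Their numbers form a series of their own that no other library carries, so a shared origin or handling and the subtype cannot be told apart.

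In a normal gland, milk ducts are lined by luminal cells and wrapped by myoepithelial cells. Luminal cells are held together by E-cadherin, desmosomes and claudin-based tight junctions. Factors such as Grhl2, Ovol2 and the Esrp splicing regulators keep them epithelial. In epithelial-mesenchymal transition, repressors such as Zeb1, Zeb2, Snai1 and Twist1 silence these genes, and claudin-low tumors are known for that pattern together with stem-like and stromal features. The study assigned subtypes by clustering expression of these same libraries. A difference in expression between the classes was therefore built into the grouping, and each p-value below measures a difference against the spread between tumors and is no independent evidence for the class.

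Values are the deposited signals, scaled so that the upper quartile of nonzero values is 1000 in each tumor. Values of the claudin-low tumors are given in the order PLK2null_732, PLK2null_733 and PLK2null_743, and those of the 25 others as the lowest, the median and the highest. Log2 differences are claudin-low minus other on log2(value + 1), with the standard error of the limma fit, and a gene was called at an adjusted p below 0.05. On this scale, changes of weakly expressed genes come out too small.

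Of 4 marker genes, Cldn3, Cldn7 and Esrp1 mark the class when low, and Pecam1 marks endothelium. The class was set from expression of these libraries, so these values describe the 3 tumors and do not test the label. Cldn3, a tight junction claudin, read 19.3, 6.59 and 1.13, against 608, 6005 and 14464 (log2 difference -9.48 ± 0.66, adjusted p = 4.1e-12). Cldn7, another claudin, read 23.6, 9.59 and 4.52, against 138, 3282 and 5749 (log2 difference -7.85 ± 0.73, adjusted p = 1.6e-09). Esrp1, which directs epithelial splicing, read 7.16, 0 and 0, against 314, 3813 and 6782 (log2 difference -10.65 ± 0.57, adjusted p = 3.3e-14). Both claudins and Esrp1 lay below every other tumor. Pecam1, the endothelial adhesion receptor CD31, read 46193, 41641 and 34792, against 602, 1264 and 22792 (log2 difference 4.85 ± 0.54, adjusted p = 4.8e-08) and lay above every other tumor.

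In all 4 genes the nearest other tumor was the primary tumor PLK2null_7763, with a Cldn3 value of 608 and a Pecam1 value of 22792. Among the remaining 24 tumors Pecam1 did not exceed 2431. Tumor PLK2null_7763 was kept among the others and its values are given where they matter. Of the 3459 genes called higher in claudin-low tumors, PLK2null_7763 lay above all remaining 24 for 38.0%, against 11.2% of all genes tested. Of the 2932 called lower, it lay below all 24 for 18.2%, against 4.49% of all genes tested.

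Plk2 itself read 54.4, 36.6 and 128, against 83.3, 314 and 553 (log2 difference -2.18 ± 0.46, adjusted p = 0.00039). Against the 6 primary tumors other than PLK2null_7763 the Plk2 difference was -1.56, adjusted p = 0.061, not called. The 12 p53-/- tumors other than T11 read 186 to 8028, and T11 read 2516. Trp53 read 2175, 2454 and 2689 in the claudin-low tumors and was not called (adjusted p = 0.78). A gene-level value does not show which exons were read, so remaining Plk2 or Trp53 signal does not test the deletions. Whether the remaining Plk2 signal came from tumor or host cells was not tested. The libraries held 38781503 to 48402917 fragments on genes in the claudin-low tumors and 31910235 to 53244746 in the others, as implied by the value of 1 read, and 3 reads corresponded to 1.48 to 2.26 units. This floor covers counting error only.

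Across 17153 genes tested, 6391 were called (37.3%), 3459 higher (20.2%) and 2932 lower (17.1%). Without PLK2null_7763 the counts were 3578 higher and 3009 lower. Rescaling by trimmed means gave 3132 and 3356, so which direction prevailed depended on the scaling. For 3429 genes the claudin-low tumors did not overlap with the others, 1908 above (11.1%) and 1521 below (8.87%). The median log2 difference over all genes was 0.02. In the following, 50 lists of genes with 830 different members are described by how many of the members tested were called, to be read against these shares. In bulk tissue, fewer cells of a type and less RNA per cell cannot be told apart, which holds for each cell type named below.

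**Figure D1:**
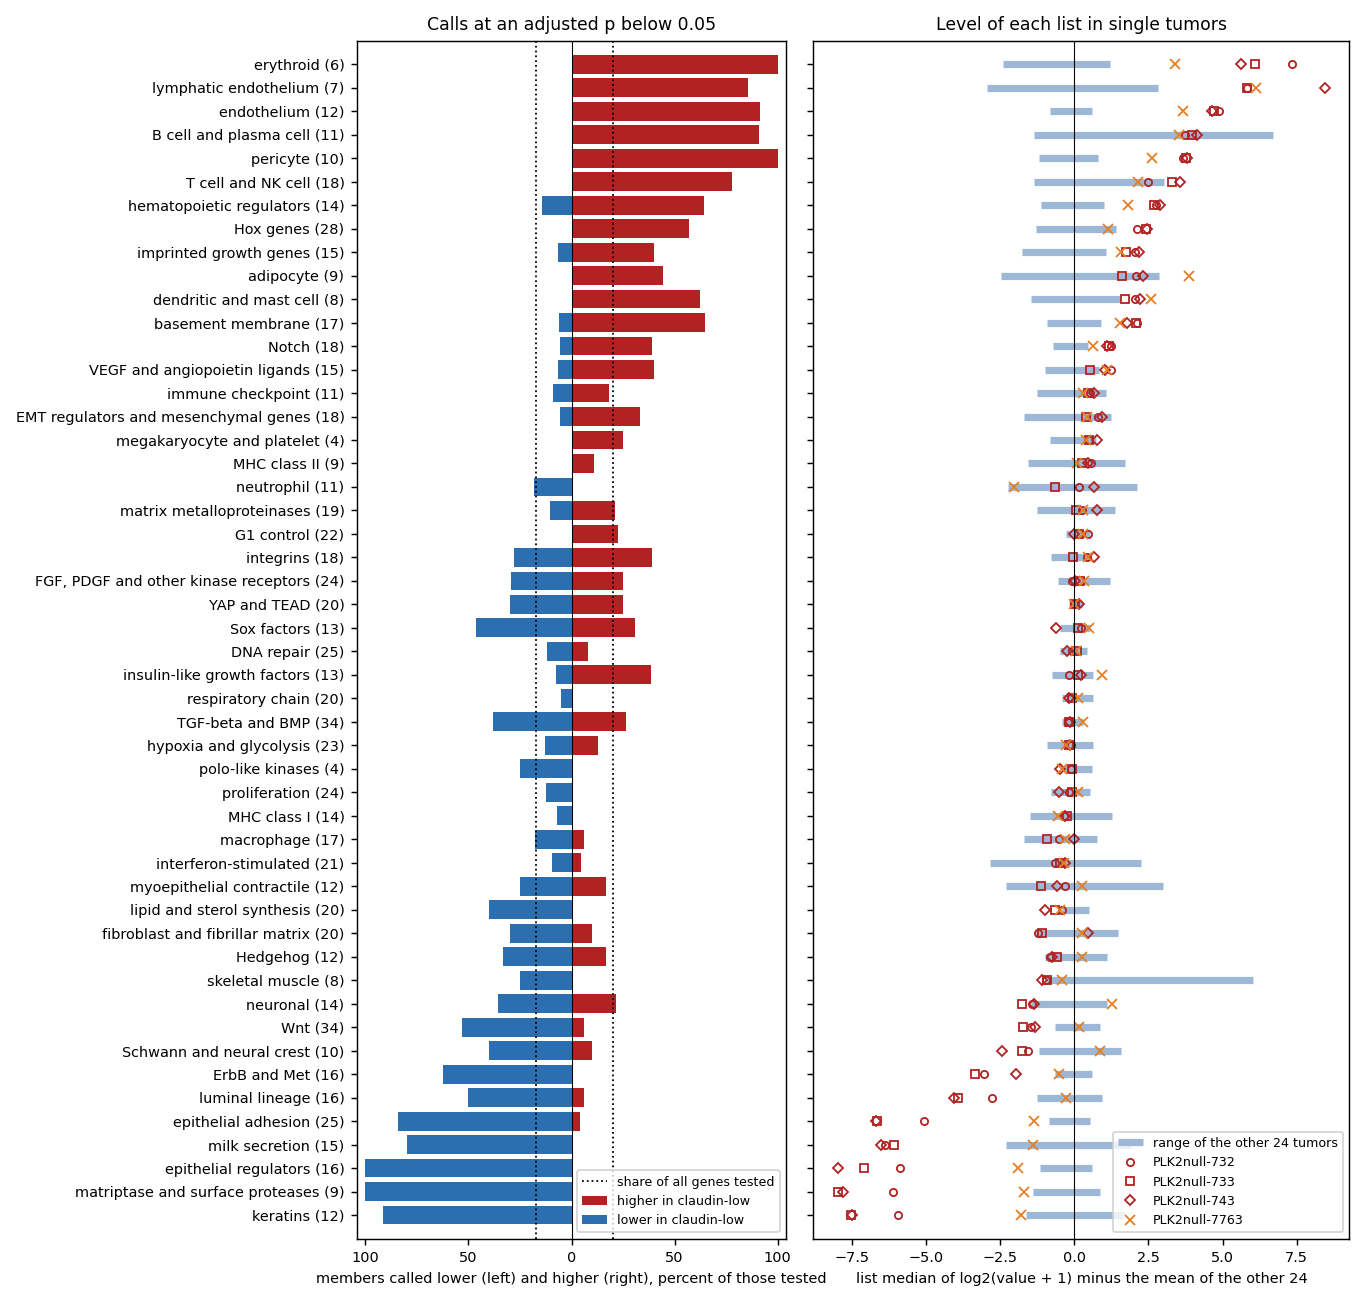
Left, for each of 50 gene lists (number of members tested in parentheses), the percent of members called lower (left bars) and higher (right bars) in claudin-low tumors, with the shares over all genes tested (17.1% lower, 20.2% higher) as dotted lines. Right, the median over list members of log2(value + 1) minus the mean of the 25 other tumors. It is given for each claudin-low tumor (open symbols), for PLK2null_7763 (cross) and as the range of the remaining 24 (bar). The mean includes PLK2null_7763, although the axis label names 24. Keratins, surface proteases, epithelial regulators, milk genes and adhesion genes lie lowest and erythroid, lymphatic, endothelial, B cell and pericyte genes highest.

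The promoters of epithelial genes are shown first because the E-box CACCTG, read as CAGGTG on the opposite strand, is the sequence that Zeb and Snail repressors are known to bind. Sequences are the 250 bases before the transcription start in RefSeq (GRCm38.p6), 5′ to 3′, with each match in capitals. They were chosen for a tight junction marker with no match (Cldn3) and another with matches (Cldn7). The other Cldn7 window holds no match and is not shown. Also chosen were the adhesion molecule with a pair of matches (Epcam) and a vesicle GTPase of polarized epithelium (Rab25). Spint2 is a protease inhibitor with the most matches.
Cldn3 (chr5:134985964-134986213, plus strand): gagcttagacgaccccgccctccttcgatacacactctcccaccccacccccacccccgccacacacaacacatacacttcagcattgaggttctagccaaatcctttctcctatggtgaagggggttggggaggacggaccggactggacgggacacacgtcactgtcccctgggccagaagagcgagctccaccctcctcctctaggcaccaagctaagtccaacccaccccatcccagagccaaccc
Cldn7 (chr11:69965171-69965420, plus strand): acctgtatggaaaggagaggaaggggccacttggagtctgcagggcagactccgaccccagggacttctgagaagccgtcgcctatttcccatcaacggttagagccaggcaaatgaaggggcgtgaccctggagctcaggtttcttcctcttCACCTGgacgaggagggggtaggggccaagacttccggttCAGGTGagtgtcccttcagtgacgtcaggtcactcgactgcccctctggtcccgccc
Epcam (chr17:87635729-87635978, plus strand): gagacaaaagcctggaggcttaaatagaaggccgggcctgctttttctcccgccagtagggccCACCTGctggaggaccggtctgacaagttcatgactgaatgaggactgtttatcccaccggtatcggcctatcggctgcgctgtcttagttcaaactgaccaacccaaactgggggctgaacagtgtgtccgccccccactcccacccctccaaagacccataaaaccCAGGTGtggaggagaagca
Rab25 (chr3:88548280-88548529, minus strand): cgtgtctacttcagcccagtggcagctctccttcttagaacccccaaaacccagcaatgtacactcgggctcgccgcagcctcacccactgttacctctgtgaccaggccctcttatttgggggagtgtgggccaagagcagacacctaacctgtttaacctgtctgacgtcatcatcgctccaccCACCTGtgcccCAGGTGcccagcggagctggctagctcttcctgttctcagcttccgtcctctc
Spint2 (chr7:29281978-29282227, minus strand): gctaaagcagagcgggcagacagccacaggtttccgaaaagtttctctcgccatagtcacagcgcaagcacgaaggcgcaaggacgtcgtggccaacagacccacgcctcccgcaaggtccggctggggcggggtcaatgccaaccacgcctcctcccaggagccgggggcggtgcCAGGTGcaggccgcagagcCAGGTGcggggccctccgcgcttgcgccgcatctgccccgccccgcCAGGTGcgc

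Promoter windows were matched for 21 of the 50 genes in the lists of epithelial regulators, epithelial adhesion and surface proteases. CACCTG stood in at least 1 window of 11 of these 21 genes (52.4%), namely Grhl3, Elf3, Rab25, Epcam, Lamb3, Cldn4, Cldn7, Ocln, Tjp3, F11r and Spint2. It was found in 17.2% of 32851 windows of the same length. Some genes have more than 1 window, which raises the share counted by gene. The general E-box CANNTG, which contains CACCTG, stood in windows of 14 of the 21 genes and in 66.2% of all windows, and GGAAN, the core of ETS factor sites, in 18 of the 21 and in 93.4%. A match is a description of the letters and not a measured binding site. Of the 11 genes with a match, F11r was not called, at 0.42 on the log2 scale (adjusted p = 0.62). Among genes without a match in any window, Grhl1, Ovol2, Tfap2a, Dsp, Cldn3, Spint1 and Tmprss2 were called lower. Jup, also without a match, was not called. Whether a match goes with lower expression was not tested.

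Of the regulators that keep cells epithelial, 16 of 16 tested were called lower, with a median log2 difference of -7.10, and 15 of the 16 did not overlap with the others. Grhl2, a Grainyhead factor that maintains junction genes, read 41.5, 17.4 and 6.21, against 998, 2189.9 and 3473 (log2 difference -6.92 ± 0.34, adjusted p = 9.4e-15). Elf3, an epithelial ETS factor, read 6.44, 0.599 and 0.565, against 184, 1809.7 and 2976 (log2 difference -9.03 ± 0.60, adjusted p = 1.8e-12). Ovol2, a zinc finger repressor of Zeb1, read 1.43, 0 and 2.82, against 34.3, 149 and 346 (log2 difference -5.92 ± 0.52, adjusted p = 6.3e-10). Ehf, another epithelial ETS factor, read 21.5, 33.6 and 13.6, against 453, 6012 and 20803 (log2 difference -7.97 ± 0.78, adjusted p = 4.5e-09). In Elf3 and Ovol2 some claudin-low values were under the floor of 3 reads. In each gene named here, every other tumor lay above all 3. The summed level of the list was 412, 194 and 140.2 in the claudin-low tumors, against 13143 to 53584 in the others. The lowest of those belonged to PLK2null_7763.

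Epithelial adhesion genes followed. Of 25 tested, 21 were called lower and 1 higher, with a median of -6.07. Cdh1, which encodes E-cadherin, read 35.8, 7.19 and 14.7, against 875, 10669 and 20184 (log2 difference -9.13 ± 0.60, adjusted p = 1.2e-12). Epcam, an epithelial adhesion molecule, read 87.4, 21 and 9.60, against 2935, 15829 and 37964 (log2 difference -9.05 ± 0.61, adjusted p = 2.4e-12). Dsp, the desmosomal plaque protein, read 50.8, 16.8 and 3.95, against 2076, 5268 and 18375 (log2 difference -8.34 ± 0.47, adjusted p = 5.5e-14), and Pkp1, a desmosomal plakophilin, read 5.01, 0 and 0.565, against 71.3, 3034 and 11536 (log2 difference -9.95 ± 1.02, adjusted p = 1e-08). None of these 4 overlapped between the groups. Not all junction genes were low. Jup, shared by desmosomes and adherens junctions, differed by 0.46 (adjusted p = 0.18) and F11r, a junctional adhesion molecule, by 0.42. Itga6, a laminin receptor, was called higher at 25626, 24442 and 18356, against 4192, 10056 and 20876 (log2 difference 1.11 ± 0.36, adjusted p = 0.015), a call that was lost when 1 claudin-low tumor was left out (adjusted p = 0.086 without PLK2null_732 and 0.076 without PLK2null_733). Its partner Itgb4, with which it forms the hemidesmosome receptor, read 211, 33.0 and 35.0, against 1571, 5181 and 11761 (log2 difference -6.35 ± 0.53, adjusted p = 1.6e-10).

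Surface proteases of epithelia and their inhibitors were low as a set, with 9 of 9 called lower and a median of -7.16. St14, which encodes matriptase, read 32.9, 15 and 13.6, against 1351, 8680.3 and 11628 (log2 difference -8.23 ± 0.56, adjusted p = 2.8e-12). Spint1, its inhibitor, read 12.2, 7.19 and 5.65, against 595, 2959 and 5181 (log2 difference -8.11 ± 0.51, adjusted p = 5e-13). Tmprss2, a related membrane protease, read 17.9, 0 and 1.69, against 209, 981 and 11953 (log2 difference -7.91 ± 0.95, adjusted p = 1.5e-07). Protease and inhibitor thus stood low in the same tumors, and neither overlapped with the other 25.

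Of 12 keratins tested, 11 were called lower and none higher, with a median of -7.34. Krt8, a luminal keratin, read 63.0, 16.8 and 9.60, against 4837, 18998 and 38600.0 (log2 difference -9.61 ± 0.47, adjusted p = 8.6e-15). Krt18, its partner, read 61.6, 5.99 and 6.21, against 2832, 17406 and 37086 (log2 difference -10.18 ± 0.57, adjusted p = 5.4e-14). Krt17, a basal keratin, read 5.01, 1.80 and 0, against 144, 1136 and 8046 (log2 difference -8.88 ± 0.89, adjusted p = 6.8e-09), and Krt14, the basal partner of Krt5, read 11.5, 1.80 and 0, against 9.65, 2347 and 5445 (log2 difference -8.0 ± 1.59, adjusted p = 0.0002). Luminal and basal keratins were thus both among those lower. Krt14 was as low in at least 1 other tumor, so its groups overlapped. Krt5, a basal keratin, was not called, at -1.95 (adjusted p = 0.64).

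Luminal and secretory genes were lower in part. 1 of 16 members were called higher and 8 lower in the luminal list (median -3.83). Elf5, the alveolar lineage factor, read 30.8, 10.2 and 5.65, against 930.0, 3137 and 6541 (log2 difference -7.73 ± 0.46, adjusted p = 2.4e-13). Gata3, the luminal master regulator, read 45.1, 24.6 and 32.8, against 40.4, 1091 and 3719.6 (log2 difference -4.72 ± 0.79, adjusted p = 2.6e-05), and Foxa1, its cofactor at hormone-responsive genes, read 7.16, 4.19 and 1.13, against 10, 506 and 4659 (log2 difference -6.22 ± 1.26, adjusted p = 0.00026). Prlr, the prolactin receptor, read 33.7, 10.2 and 4.52, against 513, 1952 and 17376 (log2 difference -7.24 ± 0.73, adjusted p = 8.1e-09). Elf5, Foxa1 and Prlr lay below all others, and Gata3 overlapped with them. The hormone receptor genes Esr1 and Pgr were not called, with log2 differences of -0.69 and -4.18. Kit, the stem cell factor receptor of luminal progenitors, was the only luminal gene called higher, at 8455, 9260.0 and 8006, against 1972, 3771 and 17177 (log2 difference 1.06 ± 0.41, adjusted p = 0.04), and this call was lost on leaving out any of the 3 tumors (adjusted p = 0.12 without PLK2null_732, 0.1 without PLK2null_743 and 0.14 without PLK2null_733).

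Among milk secretion genes 12 of 15 were called lower and none higher (median -6.31). Aqp5, a water channel of secretory epithelium, read 4.30, 0.599 and 3.95, against 239.6, 8986 and 41647 (log2 difference -11.49 ± 0.79, adjusted p = 3.3e-12), Wfdc18, a secreted whey-type protein, read 10, 1.80 and 2.26, against 212, 7295 and 32029.5 (log2 difference -10.42 ± 1.05, adjusted p = 7.4e-09), and Csn3, kappa-casein, read 7.88, 12 and 3.39, against 116, 9976 and 213851 (log2 difference -10.70 ± 1.59, adjusted p = 4.2e-06). Their ranges did not overlap with the others. Lalba, alpha-lactalbumin, read 80.2, 70.1 and 168, against 2.34, 62.6 and 7622 and was not called (adjusted p = 0.95). Of the myoepithelial contractile genes, 2 of 12 were called higher and 3 lower. Acta2, smooth muscle actin, read 3692, 1399 and 2998, against 700.0, 3087 and 73590.5 (log2 difference -0.85 ± 0.95, adjusted p = 0.52) and lay inside the range of the others. Smtn, a smooth muscle cytoskeletal protein, read 9991, 9281 and 9130.1, against 2111, 3928 and 8349 (log2 difference 1.28 ± 0.26, adjusted p = 0.00026), above all others. Des, a muscle-type intermediate filament, read 718, 793 and 771, against 40.9, 135 and 668 (log2 difference 2.48 ± 0.61, adjusted p = 0.0019), also above all others.

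**Figure D2:**
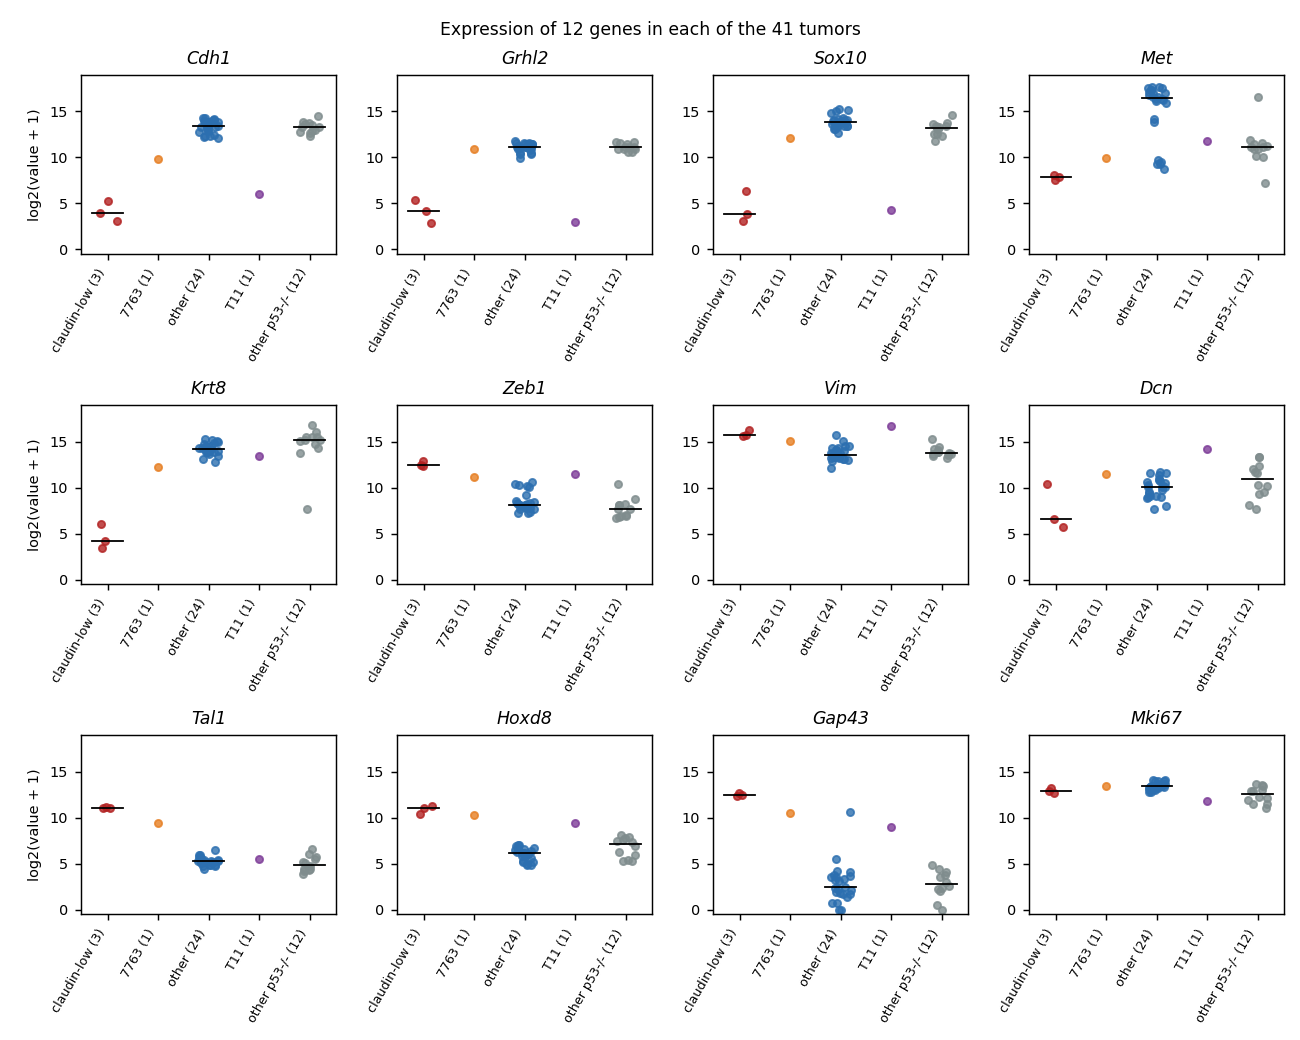
Expression of 12 genes as log2(value + 1), a point for each of the 41 tumors and a line at the median of groups of 3 or more. Groups are the 3 claudin-low Plk2-/-; p53-/- tumors, PLK2null_7763, the other 24 Plk2-/-; p53-/- tumors, T11 and the other 12 p53-/- tumors. Cdh1, Grhl2 and Sox10 are low in the claudin-low tumors and in T11, Krt8 is low in the former but not in T11, Tal1 is high in the former, Gap43 is high in both, and Mki67 overlaps across groups.

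Mesenchymal genes did not rise as a block. Of 18 tested, 6 were called higher and 1 lower, with a median of 0.79. Zeb1, a repressor of Cdh1, read 5119, 5682 and 7319.9, against 152, 285 and 2344 (log2 difference 3.96 ± 0.66, adjusted p = 2.2e-05), where the highest other tumor was PLK2null_7763 at 2344. Vim, the mesenchymal intermediate filament vimentin, read 76889, 53722 and 51517, against 4534, 11987 and 54918 (log2 difference 2.09 ± 0.46, adjusted p = 0.00068). Sparc, a matrix glycoprotein, read 180221, 163285 and 176214, against 13054, 26184 and 88716 (log2 difference 2.64 ± 0.38, adjusted p = 2.5e-06), and Foxc2, a forkhead factor of mesenchyme and vessels, read 701, 796 and 789, against 5.27, 63.2 and 562 (log2 difference 3.51 ± 0.94, adjusted p = 0.004). Zeb1, Sparc and Foxc2 lay above all other tumors. Endothelial and pericyte genes stood high in the same tumors, and which cells gave these mesenchymal values was not tested. Zeb2, the paralog of Zeb1, read 1873, 2382 and 2026, against 266, 1008 and 2157 (log2 difference 1.11 ± 0.36, adjusted p = 0.016), a call lost on leaving out a tumor (adjusted p = 0.057 without PLK2null_743 and 0.09 without PLK2null_733).

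The other repressors of the transition were not called. Snai2 read 284, 439 and 372, against 22.6, 77.4 and 3096 (log2 difference 1.21 ± 1.24, adjusted p = 0.47) and Twist1 read 178, 213 and 221, against 58.7, 677 and 1529 (log2 difference -1.53 ± 0.72, adjusted p = 0.097). Snai1 differed by 0.35 and Prrx1, a mesenchymal homeobox factor, by -0.13. The claudin-low Twist1 values lay below the median of the others. The N-cadherin gene Cdh2 and fibronectin gene Fn1 differed by -0.52 and -0.60, neither called. Cdh11, a mesenchymal cadherin, read 15.8, 25.2 and 156, against 89.9, 439 and 2075 (log2 difference -3.29 ± 0.67, adjusted p = 0.0003) and was the member called lower, a call lost against the 6 primary tumors other than PLK2null_7763 (log2 difference -3.18, adjusted p = 0.054).

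Among fibroblast and fibrillar matrix genes, 2 of 20 members were called higher and 6 lower (median -0.72). Col11a1, a fibrillar collagen of activated stroma, read 36.5, 29.4 and 443, against 429, 3329 and 10934 (log2 difference -5.12 ± 0.88, adjusted p = 3.4e-05). Dcn, the proteoglycan decorin, read 50.8, 96.5 and 1305, against 202, 1103 and 3322 (log2 difference -2.50 ± 0.75, adjusted p = 0.0098). Tumor PLK2null_743 stood apart in both genes, with values inside the range of the others, while PLK2null_732 and PLK2null_733 lay below it. The Dcn call was lost on leaving out a claudin-low tumor (adjusted p = 0.19 without PLK2null_732 and 0.1 without PLK2null_733). Col1a1, the main chain of type I collagen, read 2883, 1374 and 11408, against 1089, 19206 and 111751 and was not called (adjusted p = 0.073), and it was called without PLK2null_743 (log2 difference -3.01, adjusted p = 0.047). Against the 6 primary tumors other than PLK2null_7763, 1 member of this list was called higher and 2 lower.

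Basement membrane genes moved the other way, with 11 of 17 called higher and 1 lower (median 1.92). Col4a1, a chain of the type IV collagen sheet, read 230628, 177292 and 167989, against 7378, 18121 and 119894 (log2 difference 3.10 ± 0.64, adjusted p = 0.00033). Nid2, a linker between laminin and collagen IV, read 31559.5, 27523 and 25344, against 314, 694 and 10229 (log2 difference 5.17 ± 0.58, adjusted p = 4.6e-08). Hspg2, the heparan sulfate proteoglycan perlecan, read 71038, 61511 and 82317, against 2652, 6129.8 and 32608 (log2 difference 3.52 ± 0.45, adjusted p = 4.1e-07), and Lama4, a laminin chain of vessel walls, read 19161, 18828 and 17474, against 1829.8, 3333 and 8384 (log2 difference 2.36 ± 0.32, adjusted p = 9.7e-07). In all 4 genes the claudin-low tumors lay above the others, and the highest other tumor was PLK2null_7763. Col4a5, a collagen IV chain of epithelial membranes, read 197, 418 and 443, against 1292, 2759 and 8460.0 (log2 difference -3.13 ± 0.43, adjusted p = 1.5e-06), below all others. In the adhesion list, the epithelial laminin chains Lama3 and Lamb3 were called lower, by log2 differences of -3.56 and -7.04. Endothelial and pericyte genes stood high in the same tumors, and their part in this result was not tested.

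Endothelial genes (11 of 12 higher, median 4.77), lymphatic genes (6 of 7, 6.20) and pericyte genes (10 of 10, 3.89) were high in each claudin-low tumor. In PLK2null_7763 the medians lay 3.67, 6.12 and 2.62 above the mean of the 25 others, itself included, on the log2 scale. The summed levels were 238099 to 260308 for endothelium, against 108042 in PLK2null_7763 and at most 12004 in the remaining 24. Ligands of vessel growth were less uniform. 6 of 15 members were called higher and 1 lower (median 1.14). Vegfa, the main angiogenic ligand, read 3234, 3684 and 4465, against 1905, 6931 and 19546 and was not called (adjusted p = 0.095). Angpt2, the angiopoietin that destabilizes vessels, read 2447, 3295 and 2224, against 60.5, 419.6 and 1906 (log2 difference 2.67 ± 0.58, adjusted p = 0.00054), Angptl4, a lipase inhibitor, read 8412, 6840.4 and 10894, against 347, 963 and 4173 (log2 difference 3.08 ± 0.45, adjusted p = 3.1e-06), and Pdgfd, a ligand of the pericyte receptor Pdgfrb, read 1551, 1871 and 1447, against 80.4, 145 and 1201 (log2 difference 3.35 ± 0.45, adjusted p = 1.1e-06). These 3 ligands lay above all others. Vegfb, a ligand of Flt1, read 307, 332 and 335, against 470.2, 747 and 1563 (log2 difference -1.20 ± 0.21, adjusted p = 5.8e-05), below all others.

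Regulators of early blood and endothelial fate were split. Of 14 tested, 9 were called higher and 2 lower (median 2.86). Tal1, the stem cell leukemia factor, read 2099, 2212 and 2232, against 20.9, 38.4 and 707 (log2 difference 5.62 ± 0.54, adjusted p = 3.5e-09). Lmo2, its bridging partner, read 4059.7, 4347 and 3245, against 115, 301 and 1904 (log2 difference 3.54 ± 0.43, adjusted p = 2.2e-07), Gata2 read 687, 641 and 966, against 21.9, 44.6 and 397 (log2 difference 3.78 ± 0.58, adjusted p = 6.3e-06) and Erg, an ETS factor, read 7449, 8963 and 7431, against 69.9, 135 and 3056 (log2 difference 5.61 ± 0.63, adjusted p = 5.2e-08). The 3 claudin-low tumors lay above all others in these 4 genes, which endothelial cells are also known to express. Runx1, needed for definitive blood stem cells, read 415, 334 and 548, against 589, 3255 and 6476 (log2 difference -2.69 ± 0.57, adjusted p = 0.0004), and Myb, a progenitor factor, read 21.5, 37.7 and 40.1, against 74.2, 357 and 8033 (log2 difference -3.50 ± 0.78, adjusted p = 0.00074). Both lay below all others. Spi1, the factor of myeloid cells, differed by -0.23 (adjusted p = 0.76), and the erythroid factors Gata1, Klf1 and Gfi1b had means under 10 and were not tested.

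Of red cell genes, 6 of 6 tested members were called higher (median 6.37). Hbb-bs, an adult beta-globin, read 179569, 70139 and 45085, against 184, 1202 and 10881 (log2 difference 6.24 ± 0.68, adjusted p = 3.5e-08). Alas2, the erythroid heme synthesis enzyme, read 3661, 1461 and 989, against 13.2, 54.2 and 189 (log2 difference 5.08 ± 0.68, adjusted p = 9e-07). Epor, the erythropoietin receptor, read 1923, 2416 and 4529.6, against 5.91, 25.8 and 1254 (log2 difference 6.67 ± 0.85, adjusted p = 3.7e-07). All 3 lay above the other tumors. In both Hbb-bs and Alas2, PLK2null_732 was the highest and PLK2null_743 the lowest of the 3, whereas Epor was highest in PLK2null_743. Slc4a1, an anion exchanger of the red cell membrane, was not tested because of its low mean. The share of blood in each piece of tissue was not measured and its part in the globin values was not tested. The globin genes are near-identical copies, so reads may be split among them.

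Lymphocyte genes were higher too. T cell and NK cell genes were called in 14 of 18 cases (median 3.15) and B cell and plasma cell genes in 10 of 11 (median 4.01), all higher. Cd3e, a T cell receptor chain, read 93.1, 149 and 223, against 3.01, 12.4 and 367 (log2 difference 3.22 ± 0.80, adjusted p = 0.002). Cd8a, the marker of cytotoxic T cells, read 141, 203 and 313, against 2.25, 11.7 and 173 (log2 difference 3.64 ± 0.85, adjusted p = 0.0012). Cd79a, a B cell receptor chain, read 213, 243 and 269, against 2.24, 6.82 and 2625 (log2 difference 4.51 ± 1.12, adjusted p = 0.002). Each of these overlapped with the others, since at least 1 other tumor reached into the claudin-low range. Gzmb, a cytotoxic protease, and Foxp3, the regulatory T cell factor, were not called, at 0.24 and 0.84.

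Macrophage and neutrophil genes did not share this pattern. 1 of 17 members were called higher and 3 lower for macrophages (median -0.55). Adgre1, the F4/80 antigen, read 819.8, 883 and 1013, against 214, 652 and 1359.8 (log2 difference 0.58 ± 0.39, adjusted p = 0.25) and Csf1r, the macrophage growth factor receptor, read 2669.9, 3064 and 4554, against 868, 2359 and 4791 (log2 difference 0.66 ± 0.34, adjusted p = 0.13). Arg1, an arginase of alternatively activated macrophages, read 105, 28.8 and 132, against 203, 2889 and 13459 (log2 difference -5.18 ± 0.80, adjusted p = 7e-06), below all others. Cd14, the lipopolysaccharide coreceptor, read 363, 285 and 565, against 251, 3677 and 20180.2 (log2 difference -3.19 ± 0.76, adjusted p = 0.0015), a call lost against all 7 primary tumors (log2 difference -2.68, adjusted p = 0.072). Neutrophil genes gave 0 of 11 higher and 2 lower. Among dendritic and mast cell genes 5 of 8 were higher. Clec9a, a receptor of cross-presenting dendritic cells, read 389, 451 and 533, against 2.88, 9.93 and 325 (log2 difference 5.05 ± 0.79, adjusted p = 9.2e-06), and Zbtb46, a factor of dendritic cells that endothelium is also known to express, read 1874, 2518 and 2572, against 85.9, 185 and 961 (log2 difference 3.58 ± 0.46, adjusted p = 5.1e-07), both above all others.

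Few antigen presentation and interferon genes were called. Of 14 class I genes, 1 was called lower and none higher, and of 9 class II genes 1 was called higher. H2-K1, a class I heavy chain, read 17887, 16358 and 16004, against 3423, 17873 and 40599 (log2 difference -0.07 ± 0.46, adjusted p = 0.93). Cd74, the class II invariant chain, read 7752, 5508 and 7967, against 2012, 5404 and 23925 (log2 difference 0.12 ± 0.64, adjusted p = 0.9). These values lay well within the range of the others. Of 21 interferon-stimulated genes 1 was higher and 2 were lower, below the shares over all genes. In the checkpoint list, Cd274, which encodes PD-L1, read 411, 368 and 392, against 61.0, 458 and 2862 (log2 difference -0.25 ± 0.63, adjusted p = 0.79), and Vtcn1, the epithelial checkpoint ligand B7-H4, read 1.43, 0 and 0, against 14.1, 153 and 911 (log2 difference -6.82 ± 0.79, adjusted p = 9.6e-08), below all others.

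Hox genes, which set position along the body axis, were raised in part. Of 28 Hox genes tested out of 39, 16 were called higher and none lower (median 2.26). The filter on the mean could admit a Hox gene through high claudin-low values, so the absence of lower calls is partly built in. The called genes were Hoxb3 to Hoxb9, Hoxc4, Hoxc5, Hoxc6, Hoxc10, Hoxd3, Hoxd4, Hoxd8, Hoxd9 and Hoxd10, and no Hoxa gene was among them. Hoxd8 read 2396, 2141 and 1382, against 28.4, 70.8 and 1302 (log2 difference 4.70 ± 0.62, adjusted p = 7.3e-07), above all others. Hoxd9 read 1161, 1019 and 745, against 1.30, 17.3 and 791 (log2 difference 5.33 ± 0.97, adjusted p = 6.9e-05) and Hoxd10 read 468, 396 and 280.1, against 0, 6.90 and 373 (log2 difference 5.52 ± 1.16, adjusted p = 0.00038), where in each case the highest other tumor was PLK2null_7763, which reached into the claudin-low range. Without PLK2null_7763 the highest of the remaining 24 read 92.0 for Hoxd9 and 40.1 for Hoxd10. The Hoxd10 call was lost against all 7 primary tumors (log2 difference 4.40, adjusted p = 0.054). Hoxa5, by contrast, read 234, 241 and 279.5, against 39.2, 357 and 1610.2 (log2 difference -0.53 ± 0.85, adjusted p = 0.66). A difference between the Hoxa cluster and the other clusters was not tested.

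Imprinted growth genes gave 6 of 15 higher and 1 lower (median 2.09). Igf2, a fetal growth factor, read 16385, 36938 and 31281, against 0.652, 272 and 21491 (log2 difference 7.03 ± 1.89, adjusted p = 0.0041). Mest, expressed from the paternal copy, read 75439, 66668 and 63536, against 251, 3364 and 38759 (log2 difference 4.62 ± 1.19, adjusted p = 0.0029), and Grb10, an adaptor that restrains insulin signalling, read 20266, 21836 and 19088, against 140.5, 909 and 5724 (log2 difference 4.52 ± 0.90, adjusted p = 0.00021). Mest and Grb10 lay above all others while Igf2 overlapped. H19, the neighbour of Igf2 that is expressed from the maternal copy, read 1431, 2136 and 2566, against 538, 6405 and 138288 and was not called (adjusted p = 0.29). Phlda2, a growth-restraining gene, read 3.58, 1.80 and 0, against 7.13, 188 and 604 (log2 difference -5.78 ± 0.93, adjusted p = 1.4e-05), below all others.

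Of 10 Schwann and neural crest genes, 4 were called lower and 1 higher. Sox10, a neural crest factor that is also active in mammary progenitors, read 78.8, 13.8 and 7.34, against 4457, 14643 and 39196 (log2 difference -9.39 ± 0.51, adjusted p = 3.6e-14), and Sox9, a factor of mammary progenitors, read 132, 76.1 and 31.6, against 496, 1568 and 4743 (log2 difference -4.60 ± 0.52, adjusted p = 6.6e-08). Both lay below all others. The vascular Sox factors Sox7, Sox17 and Sox18 were called higher, and Sox18 read 9446, 8017 and 9308, against 141, 243 and 3282 (log2 difference 4.98 ± 0.53, adjusted p = 2.3e-08). The Sox list thus held opposite calls, 4 higher and 6 lower of 13. In the neuronal list 3 of 14 were called higher and 5 lower. Gap43, a growth cone protein, read 6478, 5666 and 5364, against 0, 4.63 and 1555 (log2 difference 9.36 ± 1.48, adjusted p = 1.1e-05), and Gria2, an AMPA receptor subunit, read 1858, 3582 and 1577, against 0, 0 and 898 (log2 difference 10.03 ± 1.17, adjusted p = 1e-07). Both lay above all others, and the median of the others for Gria2 was 0. Dcx, a microtubule protein of young neurons, was at 0 in all 3 claudin-low tumors and at 2.34, 22.3 and 168 in the others, which is at least 7.23-fold lower with the floor of 3 reads in place of 0. Ncam1, a neural adhesion molecule, read 11.5, 5.39 and 52.0, against 78.3, 472 and 1928 (log2 difference -4.75 ± 0.71, adjusted p = 5e-06).

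Ligands and receptors of the main growth pathways were compared next. In the ErbB and Met family 10 of 16 were called lower and none higher (median -2.57). Met, the hepatocyte growth factor receptor, read 276, 231 and 186, against 419, 83392 and 203935 (log2 difference -7.02 ± 1.84, adjusted p = 0.0034), below all others, which themselves spanned a wide range. Erbb3, the neuregulin receptor, read 40.8, 31.2 and 36.1, against 577, 4009 and 6642 (log2 difference -6.61 ± 0.46, adjusted p = 3.6e-12), and Erbb2 read 599, 584 and 435, against 326, 2088 and 4026 (log2 difference -1.92 ± 0.41, adjusted p = 0.00048), where PLK2null_7763 was the lowest of the others. Nrg2, a neuregulin, read 6.44, 6.59 and 2.26, against 46.6, 333 and 3036 (log2 difference -5.87 ± 1.04, adjusted p = 5e-05). Against all 7 primary tumors Met and Erbb2 were no longer called, at log2 differences of -5.95 (adjusted p = 0.069) and -1.60 (adjusted p = 0.087).

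The Wnt list was mostly lower, with 18 of 34 called lower and 2 higher (median -1.47). Wnt7b, an epithelial ligand, read 2.86, 1.80 and 0, against 40.4, 1060.1 and 9971 (log2 difference -8.67 ± 1.29, adjusted p = 4.2e-06), and Wnt4, the progesterone-induced ligand, read 5.01, 3.60 and 1.13, against 8.98, 70.6 and 821 (log2 difference -4.17 ± 0.95, adjusted p = 0.00091). Sfrp1, a secreted Wnt inhibitor, read 211, 91.1 and 382, against 876, 3560.2 and 30879 (log2 difference -4.38 ± 0.72, adjusted p = 2.1e-05). These 3 lay below all others. The stem cell receptors Lgr5 and Lgr6 were also called lower, by log2 differences of -3.0 and -4.38, with overlap. Fzd4, a receptor known in retinal vessels, read 5463, 6439 and 5624, against 167, 295 and 2491 (log2 difference 4.04 ± 0.47, adjusted p = 9.5e-08), above all others. Axin2, a common readout of beta-catenin signalling, read 97.4, 86.9 and 61.0, against 23.4, 212 and 706 and was not called (adjusted p = 0.11), though it was called against all 7 primary tumors (log2 difference -1.66, adjusted p = 0.031).

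Notch genes gave 7 of 18 higher and 1 lower (median 1.15). Dll4, the ligand of sprouting vessels, read 6504, 5288 and 4929.9, against 152, 249.8 and 2671 (log2 difference 4.23 ± 0.49, adjusted p = 7.8e-08), Notch4, an endothelial receptor, read 11899.9, 13196 and 13169, against 313, 745 and 6973 (log2 difference 3.85 ± 0.55, adjusted p = 2.1e-06), and Mfng, a glycosyltransferase that modifies Notch, read 5933, 4447 and 3925, against 59.1, 113 and 1840.0 (log2 difference 5.17 ± 0.53, adjusted p = 9.3e-09). The 3 genes lay above all other tumors, of which PLK2null_7763 was the highest. Notch1 read 4579.9, 5335 and 5822, against 2480.1, 6143 and 8995 and its target Hey1 1067, 894 and 576, against 204, 668 and 2562, and neither was called (adjusted p = 0.85 and adjusted p = 0.75).

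The TGF-beta and BMP list was split, with 9 of 34 higher and 13 lower (median -0.14). Tgfb1, the ligand, read 6181, 4876 and 6632, against 536, 2035 and 4939 (log2 difference 1.74 ± 0.48, adjusted p = 0.0048). The endothelial receptors Acvrl1 and Eng read 3273, 2525 and 2969, against 224, 338 and 1706 (log2 difference 2.94 ± 0.36, adjusted p = 2.1e-07) and 7322, 6722 and 7581, against 552, 1157 and 3216 (log2 difference 2.56 ± 0.39, adjusted p = 6.8e-06). Smad1, a BMP signal transducer, read 13356, 12493 and 11645, against 498, 1412 and 5054 (log2 difference 3.15 ± 0.53, adjusted p = 2.9e-05). Acvrl1, Eng and Smad1 lay above all others, and Tgfb1 overlapped. Ligands and inhibitors on the lower side included Grem1, a BMP antagonist, at 0.716, 1.20 and 6.78, against 6.19, 277 and 2322 (log2 difference -6.03 ± 1.38, adjusted p = 0.00095), and Inhba, an activin subunit, at 8.59, 4.19 and 36.1, against 13.7, 174 and 852 (log2 difference -3.46 ± 0.87, adjusted p = 0.0023). The Inhba call was lost against all 7 primary tumors (log2 difference -2.69, adjusted p = 0.089). Ltbp1, which stores latent TGF-beta in the matrix, read 294, 287 and 226, against 849, 1852 and 5023 (log2 difference -2.88 ± 0.47, adjusted p = 1.5e-05), below all others. In the Hedgehog list, 2 of 12 were higher and 4 lower, and Gli1 and Ptch1, the usual readouts, were not called, at 1.02 and -0.33.

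Among insulin-like growth factor genes 5 of 13 were higher and 1 lower. Igf1 read 3963, 4812 and 5356, against 26.3, 143 and 2316 (log2 difference 4.95 ± 0.66, adjusted p = 9e-07), above all others, and Igfbp3, its main carrier, read 91428, 34629 and 56828, against 3499, 7006 and 62224 (log2 difference 2.82 ± 0.48, adjusted p = 3.2e-05). The receptors Igf1r and Igf2r were not called, at 0.06 and -0.43. Of other kinase receptors, 6 of 24 were higher and 7 lower. Ddr1, an epithelial collagen receptor, read 280.0, 204 and 237, against 1931, 4639.9 and 9251 (log2 difference -4.22 ± 0.34, adjusted p = 6.5e-11), and Ephb3, an ephrin receptor, read 83.1, 108 and 152, against 613, 1473 and 3480.1 (log2 difference -3.84 ± 0.30, adjusted p = 5.9e-11), both below all others. Pdgfrb, the pericyte receptor, read 8234, 11246 and 13518, against 719, 1634 and 4084 (log2 difference 2.7 ± 0.37, adjusted p = 1.5e-06), and its relative Pdgfra, a fibroblast marker, read 174, 123 and 368, against 248, 855 and 7471 (log2 difference -2.38 ± 0.92, adjusted p = 0.044). The former lay above all others, and the call of the latter was lost on leaving out any of the 3 tumors (adjusted p = 0.14 without PLK2null_732, 0.063 without PLK2null_743 and 0.19 without PLK2null_733).

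The Hippo coactivators were higher while several of their targets were not. In the YAP and TEAD list 5 of 20 were called higher and 6 lower. Yap1 read 11975, 12447 and 14146, against 2797, 3931 and 7896 (log2 difference 1.55 ± 0.27, adjusted p = 4.1e-05), Wwtr1, which encodes TAZ, read 8295, 8507 and 7504, against 2181, 3783 and 5793 (log2 difference 1.10 ± 0.20, adjusted p = 5.4e-05), and Birc3, an inhibitor of apoptosis, read 4099, 4113 and 5134, against 477, 725 and 2028 (log2 difference 2.47 ± 0.28, adjusted p = 7.5e-08). All lay above the other tumors. Ctgf, a classical target, read 1046, 409 and 3213, against 2014, 7385 and 29631 (log2 difference -2.71 ± 0.55, adjusted p = 0.00024), with PLK2null_732 and PLK2null_733 below all others and PLK2null_743 within them. Cyr61, another target, differed by -1.49 and was not called (adjusted p = 0.082).

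Of 18 integrin genes 7 were called higher and 5 lower. Itga1, a collagen receptor, read 2126, 2635 and 1737, against 214, 371 and 1151 (log2 difference 2.45 ± 0.31, adjusted p = 3.5e-07), and Itga5, the fibronectin receptor, read 13559.5, 9467 and 10793, against 463, 1641 and 10859 (log2 difference 2.64 ± 0.55, adjusted p = 0.00039). Itgb6 and Itgb8, activators of TGF-beta, read 1.43, 0.599 and 1.69, against 36.7, 234 and 344 (log2 difference -6.53 ± 0.41, adjusted p = 6.9e-13) and 10.7, 10.8 and 6.78, against 167, 674 and 1780.1 (log2 difference -5.69 ± 0.56, adjusted p = 5.3e-09). Itga1 lay above and Itgb6 and Itgb8 below all other tumors, and Itga5 overlapped. Among metalloproteinases and related genes 4 of 19 were higher and 2 lower. Timp3, an inhibitor held in the matrix, read 26926, 30626 and 37849.7, against 2327, 4197 and 15089 (log2 difference 2.84 ± 0.34, adjusted p = 1.2e-07), Adamts9 read 7910.0, 9921 and 8727, against 472, 949 and 5702 (log2 difference 3.15 ± 0.43, adjusted p = 1.4e-06) and Plau, the urokinase activator, read 16140.0, 12864 and 11541, against 1142, 2561 and 6918 (log2 difference 2.33 ± 0.45, adjusted p = 0.00016), all above the others. Mmp9, a gelatinase, read 749, 466 and 1506, against 9.94, 378 and 12249 and was not called (adjusted p = 0.47).

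Of 24 proliferation genes 3 were called lower and none higher (median -0.27), under the shares over all genes. Mki67, the Ki-67 antigen, read 7583, 9597 and 6425, against 7024, 11232 and 17118 (log2 difference -0.53 ± 0.23, adjusted p = 0.073), and after rescaling by trimmed means its difference was -0.62 (adjusted p = 0.030). Plk1, the mitotic polo-like kinase, read 1220.4, 1079 and 873, against 822, 1441 and 2098 (log2 difference -0.39 ± 0.23, adjusted p = 0.19), and Plk3 read 749.6, 698 and 791, against 177, 491 and 1456 (log2 difference 0.63 ± 0.39, adjusted p = 0.21). The values of these genes lay inside the range of the others, except for Mki67 in PLK2null_743, which lay below it. Among 22 genes of G1 control 5 were higher and none lower. Cdkn1a, the inhibitor p21, read 2602, 1566 and 2929.8, against 382, 807 and 1479.8 (log2 difference 1.66 ± 0.32, adjusted p = 0.00015), above all others although these tumors lack p53, its main activator. Ccnd1, Cdkn2a and Myc were not called, at 0.23, 0.20 and -0.13. Of 25 DNA repair genes 2 were higher and 3 lower. Fancg, a Fanconi anemia core protein, read 689, 697 and 725, against 188, 282 and 667 (log2 difference 1.2 ± 0.29, adjusted p = 0.0019), above all others, a call lost against all 7 primary tumors (adjusted p = 0.050).

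Of 23 hypoxia and glycolysis genes 3 were higher and 3 lower. Epas1, which encodes HIF-2alpha and is abundant in endothelium, read 9049, 5959 and 7159.6, against 570.4, 1188 and 3193 (log2 difference 2.56 ± 0.31, adjusted p = 1.9e-07), and Hif1a read 7971, 7756 and 6021, against 1693, 2709 and 5193 (log2 difference 1.4 ± 0.24, adjusted p = 4e-05). Both lay above all others. Of hypoxia targets, Ndrg1, a stress-induced gene, read 21386, 14268 and 21126, against 2148, 6673 and 20094 (log2 difference 1.34 ± 0.47, adjusted p = 0.026), a call lost on leaving out a tumor (adjusted p = 0.12 without PLK2null_732 and 0.11 without PLK2null_743), and Slc2a1 and Car9 were not called, at 0.40 and -1.46. Aldoc, an aldolase isoform, read 55.8, 25.2 and 31.1, against 785, 6574 and 17526 (log2 difference -7.32 ± 0.60, adjusted p = 1.4e-10). Of 20 lipid and sterol genes 8 were lower and none higher (median -0.71). Scd1, the stearoyl desaturase, read 723, 683 and 574, against 1902, 18718 and 62608 (log2 difference -4.74 ± 0.60, adjusted p = 3.6e-07), and Lss, lanosterol synthase, read 252, 215 and 134, against 622, 921 and 2903 (log2 difference -2.27 ± 0.29, adjusted p = 3.6e-07). Of 20 respiratory genes only the coactivator Ppargc1a was called, at 2.15, 0 and 1.69, against 23.6, 257 and 633 (log2 difference -6.88 ± 0.64, adjusted p = 1.7e-09), and it is a regulator, not a subunit. Aldoc, Scd1, Lss and Ppargc1a all lay below the other 25 tumors.

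The adipocyte list gave 4 of 9 higher and none lower. Fabp4, a fatty acid carrier, read 103406, 99093 and 124638, against 225, 613 and 51564 (log2 difference 7.05 ± 0.87, adjusted p = 2.2e-07), Pparg, the nuclear receptor that drives fat cell formation, read 1522, 2037 and 2188, against 11.2, 40.3 and 964 (log2 difference 5.35 ± 0.78, adjusted p = 3.2e-06), and Cd36, a fatty acid transporter, read 7875, 11419.5 and 13527, against 9.73, 230.4 and 8765 (log2 difference 6.09 ± 1.05, adjusted p = 3.7e-05). These genes are known in fat cells and also in capillary endothelium, and the part of either cell type was not tested. Adipoq, adiponectin, read 3.58, 7.19 and 11.9, against 0, 10.3 and 249 (log2 difference -0.17 ± 1.27, adjusted p = 0.93), and Plin1, the coat of fat droplets, read 22.9, 15.6 and 27.1, against 0, 1.44 and 147 (log2 difference 2.27 ± 1.15, adjusted p = 0.12), both overlapping with the others. Skeletal muscle genes gave 2 of 8 lower and none higher, with summed levels of 43.6 to 63.7 in the claudin-low tumors. In the platelet list Pf4 alone of 4 was higher, and Itga2b, the platelet integrin, read 158, 139.6 and 167, against 53.2, 119 and 289.9 (log2 difference 0.35 ± 0.40, adjusted p = 0.52).

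Outside the 50 lists, the largest differences among genes with groups apart were led by Madcam1, an addressin of mucosal venules, at 8408, 11672 and 9326, against 0, 5.52 and 3085 (log2 difference 10.17 ± 1.30, adjusted p = 4.2e-07), Itgad, a leukocyte integrin subunit, at 876, 1337 and 1484, against 0, 0.710 and 276 (log2 difference 9.23 ± 0.91, adjusted p = 5.6e-09), and Grin2c, an NMDA receptor subunit, at 1848, 2315 and 1929, against 0, 1.44 and 393 (log2 difference 9.18 ± 1.02, adjusted p = 4.4e-08). Dnah10 (an axonemal dynein), Gpm6a, Pcsk2os2, Lrrc55, Clic5 and Crmp1 followed, with log2 differences from 8.62 down to 7.89. In all of these the highest other tumor was PLK2null_7763. On the lower side Col9a1, a chain of cartilage collagen IX, read 5.73, 0.599 and 0, against 196, 6559.5 and 16731 (log2 difference -11.08 ± 0.84, adjusted p = 2.2e-11), Clca3a2, a secreted chloride channel regulator, read 0.716, 1.20 and 0.630, against 22.8, 5682 and 41119.9 (log2 difference -10.67 ± 1.62, adjusted p = 6.1e-06), and Faim2, an inhibitor of Fas signalling, read 0.716, 0 and 0, against 23.6, 2149 and 6953 (log2 difference -10.52 ± 0.99, adjusted p = 2.2e-09). Wfdc2, Mme, Marveld3, Mpzl2, Wwc1, Myo5b and Myh14 followed, from -9.80 to -8.77. Marveld3 is a tight junction protein and Wwc1 encodes Kibra, a Hippo pathway scaffold. These genes were chosen by size of the difference and their values are a description.

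T11, the claudin-low p53-/- tumor, was also low in most epithelial genes of these lists. Its list medians against the 12 other p53-/- tumors were -7.78 for epithelial regulators, -7.86 for surface proteases and -5.20 for adhesion, and 14 of 16, 9 of 9 and 21 of 25 members lay below all 12. The regulator Klf5 stood above all 12, at 574 (others 35.6 to 432). The lead genes read 61.9 for Cdh1 (others 5114 to 23162), 6.92 for Grhl2 (1477 to 3198) and 17.7 for Sox10 (3428 to 24502). Of 12 keratins, 6 lay below all 12 others in T11 and none above (median -5.22), the rest lying within. Krt8 read 11057 in T11 (others 198 to 116097) and Krt18 22508 (16732 to 95209.6), within the range of its genotype. Because T11 is 1 tumor, its difference has no replicate check of its own.

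Of 18 mesenchymal genes 13 lay above all 12 others (median 2.87), with Twist1 at 1459 (207 to 1177) and Zeb1 at 2930.0 (103 to 1291). In the fibroblast list 6 of 20 lay above all 12 and 14 within their range (median 1.57), with Dcn at 18840.1 (199 to 10584) and Pdgfra at 6442 (149.6 to 4212). Hox genes had a median of 2.50, and 12 of 28 lay above all others. Endothelial genes had a median of 0.41 and pericyte genes of -0.68, with Pecam1 at 1934 (499.6 to 4114) and Tal1 at 45.9 (14.1 to 98.1), inside their ranges. T cell, B cell and class II genes had medians of -2.17, -1.73 and -3.15, and 9 of 9 class II genes lay below all 12. Of the 3459 genes higher in the Plk2-/-; p53-/- claudin-low tumors, T11 lay above its genotype for 19.3%, against 12.5% of all genes tested, and of the 2932 lower genes it lay below for 34.9%, against 17%.

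**Figure D3:**
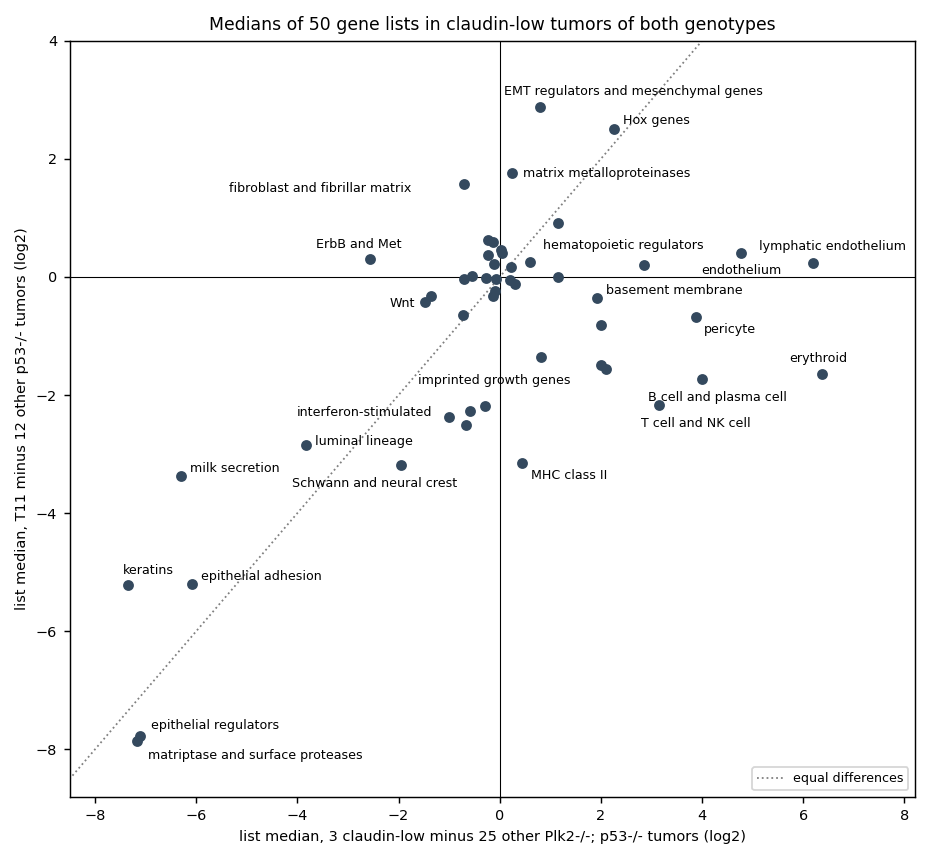
Each point is 1 of 50 gene lists, by the median log2 difference of its members tested in the 3 claudin-low Plk2-/-; p53-/- tumors against the 25 others (x axis) and in T11 against the 12 other p53-/- tumors (y axis), with a dotted line of equal differences. Epithelial regulators and surface proteases lie near the line at about equal values, and Hox genes do too, whereas endothelial, pericyte, erythroid and lymphocyte lists lie far to the right of it and the fibroblast and mesenchymal lists above it.

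How far the 3 claudin-low tumors differed from T11, each relative to its own genotype, was computed as (claudin-low minus other in Plk2-/-; p53-/-) minus (T11 minus other in p53-/-), in a limma fit of all 41 tumors. The spread of T11 is borrowed from the other groups, so these values compare the 3 tumors with that 1 tumor, and a difference between genotypes cannot be told apart from a trait of T11. Of 17208 genes tested, 1715 were called (9.97%), 1125 positive and 590 negative. The median over all genes was 0.19, and -0.008 after rescaling by trimmed means, so values are to be read relative to these. Among epithelial regulators 2 of 16 were called positive and 2 negative. Cdh1 differed by -1.83 ± 1.07, adjusted p = 0.31, Grhl2 by 1.22 ± 0.63, adjusted p = 0.24 and Sox10 by -0.50 ± 0.98, adjusted p = 0.81, none called, and standard errors of this size do not show that the tumors are alike. Dsp differed by -5.90 ± 0.96, adjusted p = 9.4e-05, and Krt8 by -8.45 ± 1.69, adjusted p = 0.00091. Endothelial genes were called positive in 10 of 12, pericyte genes in 7 of 10 and erythroid genes in 6 of 6. The titles of the p53-/- libraries carry a series name that the others lack, so batch and genotype cannot be told apart in any direct comparison of the 2 genotypes.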

How the data were processed

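RNA-seq libraries (Illumina TruSeq mRNA) of 41 mouse mammary tumors were analysed from the table that the authors deposited. The submitters' processing notes name STAR 2.7.6a, Salmon 1.4.0, Picard 2.22.4, SAMtools and mm10. The deposited signal is a linear expression value per gene symbol, which the authors scaled to an upper quartile of 1000 among nonzero values in each tumor. From 77.8% to 80.5% of nonzero values lay within 0.1 of a whole read, so no count model was used. Genes with a mean of 10 or more in the 28 Plk2-/-; p53-/- tumors were compared by limma (version 3.58.1, R version 4.3.3, no trend) after a log2(value + 1) transform, with Benjamini-Hochberg adjustment over all genes, a threshold of 0.05 and no covariates. The fit was run on simulated independent tumors with planted changes, which does not test related tumors or grouping by expression. Subtypes came from the study and the tumor numbers from the labels. p-values measure only the spread between these tumors, whose independence the labels do not state. Members and lists were chosen with earlier results of these data known. Named were lead genes of each list, up to 3 called members a direction with the largest difference, the 10 largest non-overlapping genes a direction outside the lists (one clone-named gene omitted), and the 4 markers with Plk2 and Trp53. Members named as not called, or for contrast, were chosen after their values were seen. Alternatives were pseudocounts of 0.1 and 10, no filter or a mean of 50, a trend, rescaling by trimmed means (coded here) or quantiles, other sets of comparison tumors, all 41 tumors, and leaving out each claudin-low tumor. Promoters and motif searches (both strands) used RefSeq windows of 250 bases. Some genes are not reported here.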

Additional observations from a re-analysis of the deposited data

Results flagged for a closer look

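For 29 of 117 genes (the lead genes of the lists, the markers, Plk2 and Trp53), the difference between claudin-low and other Plk2-/-; p53-/- tumors was itself different from that of T11 within p53-/- tumors, in the limma fit of all 41 tumors at an adjusted p below 0.05. Over all genes the share was 9.97%. Values are the log2 difference in Plk2-/-; p53-/- tumors minus that of T11. T11 is 1 tumor whose spread is borrowed from the other groups, so these values do not show a difference between genotypes, which cannot be told apart from a trait of T11.

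Vessel and stromal support genes were more positive in the Plk2-/-; p53-/- claudin-low tumors than in T11, with 4.32 for Pecam1, 4.04 for Cdh5, 3.36 for Acvrl1, 4.91 for Sox18, 3.47 for Dll4, 3.27 for Fzd4, 8.34 for Prox1, 6.09 for Rgs5, 3.27 for Lama4 and 2.65 for Hspg2. The same held for blood and lymphocyte genes, with 5.09 for Tal1, 3.82 for Lmo2, 7.85 for Hbb-bs, 6.86 for Alas2, 5.38 for Cd8a and 6.32 for Cd79a. Other genes on this side had 9.44 for Gria2, 6.13 for Kit, 4.74 for Igf1, 4.13 for Itga9, 3.73 for Erbb2 and 2.97 for Yap1. For Erbb2 this means a smaller decrease than in T11. Within Plk2-/-; p53-/- tumors, Kit differed by only 1.06, and Itga9 by 1.65 to 1.69 with 1 claudin-low tumor left out. The values of Kit and Itga9 above thus also hold a low level in T11. Under a pseudocount of 10 the Cd79a value was 4.20 and no longer called (adjusted p = 0.076).

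On the negative side stood -5.92 for Dcn and -5.55 for Pdgfra, both fibroblast genes that were high in T11. The others were -8.45 for Krt8, -5.90 for Dsp, -4.37 for Itgb4, -4.56 for Sox9 and -2.05 for Fasn, genes that fell further in the Plk2-/-; p53-/- claudin-low tumors or did not fall in T11. The cause of these differences was not tested.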

How the results depend on the processing

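The number of genes called stayed within 1.5 times of 6391 under every alternative run, from 4392 against the 7 primary tumors to 8234 with no filter on low values. With no filter 5253 genes were called higher, against 3459. Rescaling by trimmed means gave 3132 higher and 3356 lower, and quantile normalization 3212 and 2904. Leaving out 1 claudin-low tumor gave 4527 to 4629 genes. Using the 6 primary tumors other than PLK2null_7763, an alternative chosen after seeing the data, gave 4897. For the 275 genes chosen by rule, 3583 of 3831 alternative values kept direction and side of the threshold, 241 fell short of it, 7 passed it anew and none changed direction. Most losses came with a change of tumors. There were 44 against the 7 primary tumors, and 40, 43 and 29 without PLK2null_732, PLK2null_733 and PLK2null_743. A pseudocount of 0.1 lost 1 and a trend lost 2. Of 700 alternative list medians 120 moved by more than the spread between the claudin-low tumors. The count for the difference from T11 was 1715, and 1790 with a pseudocount of 10. No paired analysis was possible because replicate numbers were given in accession order and only name tumors. Genes at or under 3 reads in the claudin-low tumors are limited by depth, and their fold changes depend on the pseudocount. With 3 claudin-low tumors of 1 number series, the spread among them may understate that of the class.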

Other observations

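By chromosome, the median deviation of genes tested was taken from the mean of the 25 other Plk2-/-; p53-/- tumors, on the log2 scale. On 3 chromosomes it put the 3 claudin-low tumors outside the range of the 24 others without PLK2null_7763. On chromosome 17 PLK2null_732, PLK2null_733 and PLK2null_743 read 0.26, 0.42 and 0.42, against at most 0.24. On chromosome 18 they read -0.37, -0.36 and -0.26, and on chromosome 19 -0.32, -0.29 and -0.37, against lowest values of -0.22 and -0.21. Tumor PLK2null_7763 read 0.40 on chromosome 17 but 0.22 and 0.09 on chromosomes 18 and 19, above the claudin-low tumors. Of genes tested on chromosome 4, 32.3% were called higher and 10.8% lower, against 20.2% and 17.1% over all genes. Chromosome 14 was similar, at 31.7% and 10.6%. On both chromosomes the claudin-low medians lay within the range of those 24. Copy number was not measured.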
